A study of Mus musculus with 6 samples.

Results

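The genes examined here encode caspase 8 (Casp8), its inactive homologue cFLIP (Cflar), the adaptors Fadd and Tradd, the kinase Ripk1, and the inhibitor of apoptosis proteins (IAPs) Birc2, Birc3 and Xiap. They were taken by symbol or synonym from the probes of the deposited array table, with the brightest probe standing for a gene. All 8 genes had a probe, 9 probes in all, out of 16390 gene symbols and 23473 probes on the array. The genes were chosen from knowledge of this pathway and with the difference between siSpt6 and siControl already known, so that difference is given for them as a description and carries no p-value.

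The samples were 6 RNAs of CH12F3-2A, a cell line from a mouse B lymphoma in which stimulation induces class switching to IgA. In the siControl group (3 samples) the cells received a control siRNA by electroporation, and in the siSpt6 group (3 samples) an siRNA against Spt6, a histone chaperone that moves with RNA polymerase II and is encoded by Supt6. Both groups were given CD40 ligand, interleukin 4 and TGF-beta (CIT) 24 h later and were harvested after 24 h of CIT, so no sample was unstimulated. No sample without electroporation and no 2nd cell line was part of the values used here, and the labels do not give how many different Spt6 siRNAs were used. Each RNA was read with Cy5 on its own array, as an intensity in arbitrary units. The study's subject is the choice of targets by AID, the enzyme that starts class switching. Here the arrays show how the transcripts of the caspase 8 and IAP genes differ between the groups.

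Caspase 8 starts the death signal of receptors such as Fas and TNF receptor 1. Fadd brings it to the receptor, and cFLIP, which lacks the catalytic activity of caspase 8, joins it there and limits its activation. At TNF receptor 1, Tradd and Ripk1 build a first complex in which the ubiquitin ligases Birc2 (cIAP1) and Birc3 (cIAP2) attach ubiquitin chains that lead to NF-kB activation, while Xiap binds and blocks caspases further down. In B cells CD40 signals through TRAF proteins to NF-kB, and Birc3 and Cflar are well-known NF-kB target genes.

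The facts of the whole data set that touch these genes are few. Between 21526 and 22372 probes had a value on an array, the array medians lay within 0.00109 of each other on the log2 scale, and Pearson's r between arrays, over the log2 intensities of probes, was 0.987 to 0.991 within and 0.976 to 0.981 between groups (probes are not independent replicates). The only probe for Supt6 read 33.1, 32.1 and 32.1 in siControl and 25.1, 21.8 and 28.1 in siSpt6. Its groups did not overlap, as was so for 37.3% of the probes measured on all arrays. The probe was at percentile 48.3 of mean levels. It gave a log2 difference of -0.38 (SE 0.13) and did not pass the threshold (limma adjusted p = 0.0973). It passed in 1 of 7 fits of all arrays under other processing, after cyclic loess normalization (limma adjusted p = 0.0491). In the 6 fits without 1 array it passed in 0. Of 8 B cell markers with a probe, all were above the median level of tested probes, and their summed intensity was 34217 to 39127 in siControl and 35513 to 38884 in siSpt6; Cd79b rose and Cd22 fell. Of 6 T cell markers with a probe 0 were above that level, and their sum was 45.4 to 63.1 in siControl and 45.3 to 53.2 in siSpt6. Of 7 myeloid markers 2 were above it, Csf1r and S100a8, with a sum of 105 to 128 in siControl and 115 to 130 in siSpt6. Of 5 plasma cell markers 2 were above it, Irf4 and Xbp1, of which Xbp1 fell, with a sum of 2172 to 2399 in siControl and 1769 to 2026 in siSpt6, and the 1 red cell marker with a probe, Alas2, was below it at 25.8 to 30.6 and 24.2 to 28.2. The part of other cells in the results was not tested. The number of samples, 3 a group, limits the precision, and nothing says that the samples came from separate cultures, so the p-values cover only a spread that may be technical. The labels word the protocols of the groups differently and give no culture or array batch, so a batch that follows the groups and the siRNA cannot be told apart.

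The promoters of the genes that differed most are shown first, because Cflar with Casp8 and Birc2 with Birc3 lie next to each other on the chromosome, so that each pair can be set side by side. In RefSeq's gene order Casp8 is the next protein-coding gene after Cflar on mouse chromosome 1, and Birc3 the next after Birc2 on chromosome 9. The sequences are RefSeq windows of the assembly GRCm38.p6, from 250 bases before to 50 bases after a transcript start, written 5′ to 3′ on the strand of the gene. Capitals mark matches, on either strand, to the TATA box letters TATAAA, the CAAT box letters CCAAT, the GC box letters GGGCGG, the cAMP response element TGACGTCA or the NF-kB consensus. The windows are chr1:58711241-58711540 (plus strand) for Cflar, chr1:58802252-58802551 (plus strand) for Casp8, chr9:7873121-7873420 (minus strand) for Birc3, and chr9:7837008-7837307 (minus strand) for Birc2, the paralogue beside it.
Cflar: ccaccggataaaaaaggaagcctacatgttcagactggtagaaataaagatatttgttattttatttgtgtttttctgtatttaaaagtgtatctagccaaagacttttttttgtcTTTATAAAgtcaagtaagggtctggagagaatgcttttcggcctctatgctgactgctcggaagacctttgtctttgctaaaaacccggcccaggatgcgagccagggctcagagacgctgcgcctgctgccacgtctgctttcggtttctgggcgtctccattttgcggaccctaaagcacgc
Casp8: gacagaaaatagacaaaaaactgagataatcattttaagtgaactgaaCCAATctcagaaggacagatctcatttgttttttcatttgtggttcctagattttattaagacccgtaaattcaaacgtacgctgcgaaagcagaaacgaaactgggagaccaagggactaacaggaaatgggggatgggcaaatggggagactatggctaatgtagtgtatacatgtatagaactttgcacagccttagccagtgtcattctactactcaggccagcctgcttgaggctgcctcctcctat
Birc3: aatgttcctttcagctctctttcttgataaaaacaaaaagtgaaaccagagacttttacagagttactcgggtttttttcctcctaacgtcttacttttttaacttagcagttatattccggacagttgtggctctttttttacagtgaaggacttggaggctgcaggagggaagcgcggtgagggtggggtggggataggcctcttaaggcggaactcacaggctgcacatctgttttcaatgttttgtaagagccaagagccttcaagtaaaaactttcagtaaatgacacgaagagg
Birc2: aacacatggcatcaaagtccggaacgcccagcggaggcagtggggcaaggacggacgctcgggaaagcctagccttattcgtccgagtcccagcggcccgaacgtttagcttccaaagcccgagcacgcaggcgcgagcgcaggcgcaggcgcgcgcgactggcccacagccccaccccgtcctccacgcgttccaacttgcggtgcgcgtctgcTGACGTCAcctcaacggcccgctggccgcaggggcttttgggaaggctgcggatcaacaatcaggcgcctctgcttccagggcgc

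The windows of Cflar, Casp8 and Birc3 were poor in G and C. They held 45.0%, 42.0% and 43.0% G and C, below the lower quartile of all 32851 windows in the table (45.7%, median 52.7%), with 12, 5 and 7 CpG dinucleotides. The Birc2 window shown had 67.0% and 34 CpG, and its other window 60.0% and 21 CpG. The Fadd window had 60.3%, those of Ripk1 61.7% and 67.0%, and those of Xiap 61.7%, 50.0% and 37.7%; Tradd had no window in the table. Among 12193 tested genes with a window, 11.5% of the 2353 with a mean G and C share under 50% passed the threshold described below, against 18.6% of the 9840 at or above it. These genes were not matched for level of expression, and why the shares differ was not tested.

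Short motifs were few in these windows. TATAAA was in the Cflar window as overlapping matches on both strands, the one on the gene's strand 132 bases before the start, and 13.6% of all windows hold that motif. It was also in 1 window of Xiap. CCAAT was 202 bases before the Casp8 start and also in the other Birc2 window (37.4% of all windows). TGACGTCA was 35 bases before the Birc2 start (1.79% of all windows). The Birc3 window held none of the motifs. GGGCGG was in 6 of the 11 windows of these genes, those of Fadd and Ripk1, 2 of the 3 of Xiap and the other Birc2 window, and in 35.7% of all windows. The NF-kB consensus was in 0 of the 11 windows and in 4.51% of all windows, which says only that those letters are not in these stretches.

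The initiator caspase was higher in siSpt6, and its inhibitor was lower by the brighter of its probes. The Casp8 probe had intensities of 523, 521 and 473 in siControl, against 689, 760 and 726 in siSpt6. Each siSpt6 value was above each siControl value. The means were 506 ± 28.2 and 725 ± 35.7 (intensity ± SD, n = 3 each), a log2 difference of 0.52 (SE 0.11) or a level 1.43 times that of siControl. In these bulk samples, a change in the number of cells with a transcript and a change in its amount per cell cannot be told apart.

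Cflar, by its brighter probe, read 128, 123 and 115 in siControl and 53.5, 52.4 and 51.2 in siSpt6. The groups were far apart and the siSpt6 values were close to each other. The means were 122 ± 6.54 and 52.4 ± 1.17 (intensity ± SD, n = 3 each), a log2 difference of -1.22 (SE 0.11), which is 2.33-fold lower and stood at percentile 1.02 of the log2 differences of all tested probes. It was the largest difference among the 8 genes.

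The dimmer probe of Cflar did not show this. It read 42.6, 56.8 and 41.4 in siControl and 34.6, 38.2 and 51.2 in siSpt6. The groups overlapped, and the log2 difference was -0.19 (SE 0.20). Both probes had the symbol Cflar in the probe table. Cflar is known to be spliced into several forms, and the sources used here do not give which part of the transcript either probe reads. The mean of both probes gave a log2 difference of -0.71, so the size of the Cflar difference depends on the probe.

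**Figure D1:**
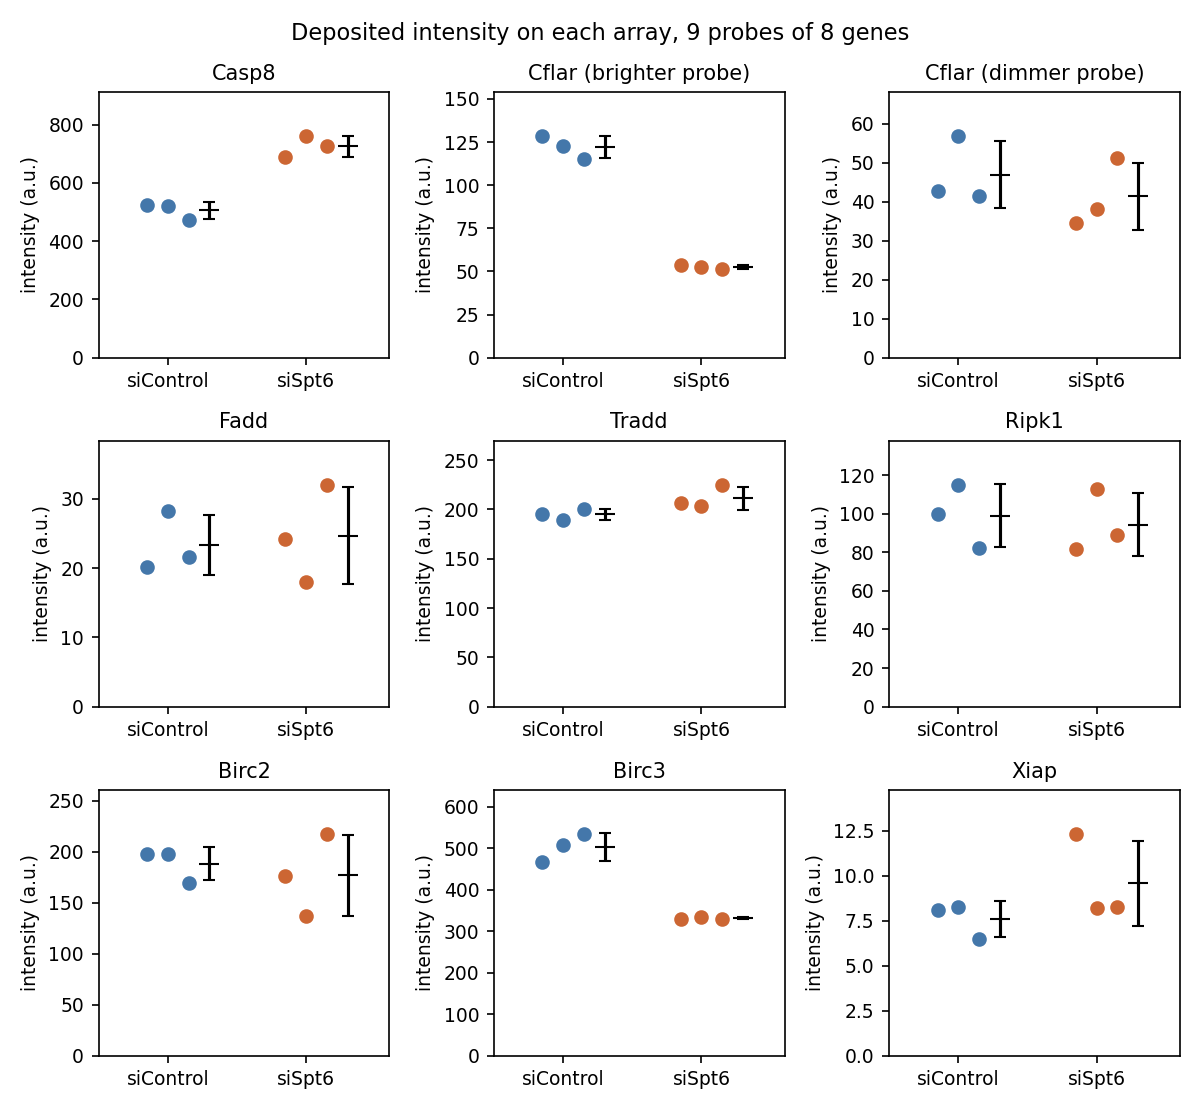
Deposited intensity (arbitrary units, linear axis from 0) of the 9 probes on each siControl array (blue points) and each siSpt6 array (orange points), with the group mean and SD as black bars. Casp8 lies higher in siSpt6 and the brighter Cflar probe and Birc3 lie lower, with groups that do not overlap. The groups of Tradd do not overlap either, with siSpt6 only slightly higher. The dimmer Cflar probe, Fadd, Ripk1, Birc2 and Xiap overlap.

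The adaptors and the kinase of the receptor complexes had small differences next to those of Cflar and Casp8. Fadd, the adaptor between death receptors and caspase 8, read 20.1, 28.2 and 21.5 in siControl and 24.2, 17.9 and 32.0 in siSpt6. The values of the groups were interleaved, with a log2 difference of 0.06 (SE 0.24). Fadd was dim, at percentile 45.2 of mean levels among tested probes, and the spread within siSpt6 was 1.78-fold from lowest to highest.

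Tradd, which links TNF receptor 1 to Ripk1 and Traf2, read 196, 189 and 200 in siControl and 206, 203 and 224 in siSpt6. The groups did not overlap, but the lowest siSpt6 value was close to the highest siControl value. The means were 195 ± 5.52 and 211 ± 11.6 (intensity ± SD, n = 3 each), a log2 difference of 0.11 (SE 0.11).

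Ripk1, the kinase that leads either to NF-kB or to cell death, read 99.8, 115 and 82.0 in siControl and 81.5, 113 and 88.7 in siSpt6. The ranges of the groups were nearly the same. The log2 difference was -0.07 (SE 0.18).

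Of the IAP genes, Birc3 differed between the groups and its neighbour Birc2 did not do so beyond the spread. Birc3 read 467, 507 and 534 in siControl and 330, 335 and 330 in siSpt6. All siSpt6 values were lower and lay within 1.02-fold of each other. The means were 503 ± 33.6 and 332 ± 2.74 (intensity ± SD, n = 3 each), a log2 difference of -0.60 (SE 0.11) or 1.51-fold lower.

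Birc2 read 198, 197 and 169 in siControl and 176, 137 and 217 in siSpt6. The siSpt6 group held both the lowest and the highest of the 6 values. The log2 difference was -0.11 (SE 0.19). The names of these paralogues need care: in RefSeq each of Birc2 and Birc3 carries the other's symbol as an older synonym. The Birc3 probe is listed under that current symbol, and the Birc2 probe under a clone name that is a synonym of Birc2 alone, so which paralogue the first probe reads rests on the symbol, and hybridisation of both transcripts to one probe was not tested.

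Xiap, listed under its older symbol Birc4, read 8.07, 8.27 and 6.46 in siControl and 12.3, 8.19 and 8.24 in siSpt6. The log2 difference of 0.32 (SE 0.20) rested on siSpt6 replicate 1, the other siSpt6 values lying among the siControl values. It was 0.12 without that array. The probe was at percentile 27.5 of mean levels, and no detection limit is stated for dim values.

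**Figure D2:**
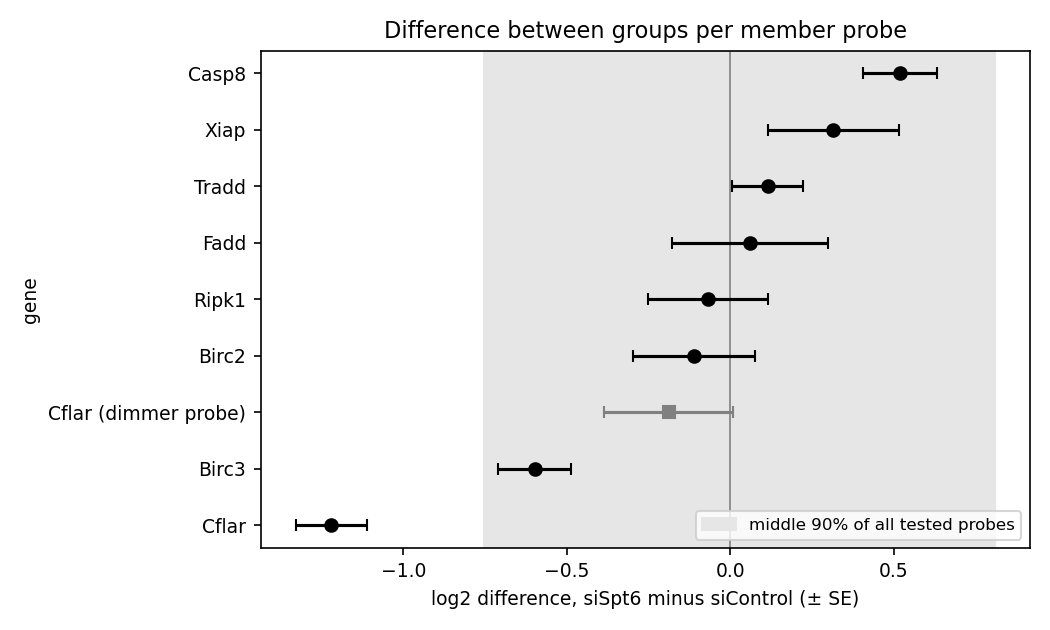
Log2 difference of intensity, siSpt6 minus siControl, with its SE from limma, for the brightest probe of each gene (circles) and the dimmer Cflar probe (square). The grey band runs from the 5th to the 95th percentile of all tested probes, -0.75 to 0.81, and only the brighter Cflar probe at -1.22 lies outside it.

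Across the array, a probe was tested with limma where it had values on at least 2 arrays of each group, and it was called where the Benjamini-Hochberg adjusted p was under 0.05. All 8 genes were tested. By that rule 3 of the 8 were called, against 16.3% of all 21584 tested probes and 17.0% of 15224 named genes. In direction, 1 was higher (Casp8, against 7.43% of probes called higher) and 2 were lower (Cflar and Birc3, against 8.90% of probes called lower). The groups did not overlap in 4 of the 8 (also Tradd), against 37.3% of the 20336 probes measured on all arrays. Since the genes were chosen with this contrast known, nothing is read from these counts. The median log2 difference of the 8 genes was -0.00, against 0.01 for all tested probes. The share of higher probes among those called was 45.5% in the deposited values, 57.3% after quantile normalization and 53.6% after cyclic loess.

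The values of these genes under other processing are given as a description of the same contrast, from which nothing is read about reliability. Cflar and Birc3 were called without any 1 of the 6 arrays, with log2 differences of -1.26 to -1.18 and -0.65 to -0.55. Casp8 kept a log2 difference of 0.47 to 0.56 but was called in 0 of these 6 fits, whichever siControl or siSpt6 replicate was left out. Normalization moved the values of Casp8 and Birc3, and that of Cflar only little. After quantile normalization Casp8 was at 0.70, Birc3 at -0.44 and Cflar at -1.18. After cyclic loess they were at 0.69, -0.46 and -1.21, and each was called in both fits.

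**Figure D3:**
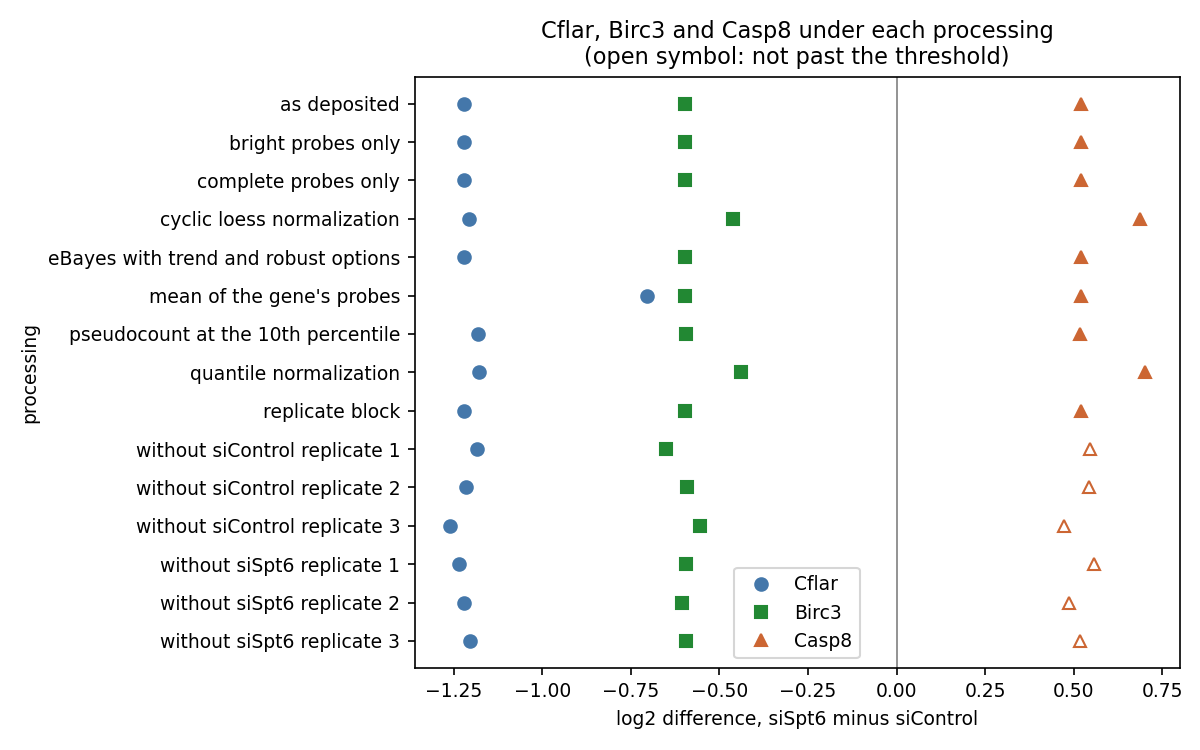
Log2 difference, siSpt6 minus siControl, of Cflar (circles), Birc3 (squares) and Casp8 (triangles) as deposited and under each other processing, with filled symbols where limma's adjusted p was under 0.05. Cflar stays between -1.26 and -1.18 except for the mean of its probes at -0.71, and Casp8 has open symbols in each fit that leaves out 1 array.

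Within each array, Casp8 was set against Cflar and against Birc3. The genes of these ratios were chosen with their differences known, so the separation of the groups is a description. The ratio of Casp8 to the brighter Cflar probe was set to the siControl mean, around which the siControl arrays lay at log2 values of -0.02, 0.03 and -0.01. The siSpt6 arrays lay at 1.64, 1.81 and 1.78, far above all siControl arrays. The difference was 1.74 (SE 0.06), a ratio 3.34 times that of siControl. With the dimmer Cflar probe the siSpt6 arrays lay at 0.87, 0.87 and 0.38 and the siControl arrays at 0.17, -0.24 and 0.07. The difference was 0.71 (SE 0.21), of which the log2 difference of Casp8 itself makes up 0.52, so it is no second reading of a lower Cflar. The 2 Cflar probes disagreed: the ratio of the dimmer to the brighter probe differed by 1.03 (SE 0.24), with groups that did not overlap. The ratio of Casp8 to Birc3 differed by 1.12 (SE 0.11), 2.17 times that of siControl. The ratio of Birc2 to Birc3 differed by 0.49 (SE 0.23), with groups that overlapped. Such a ratio shows unequal change of 2 probes and gives no amount of one protein against another.

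**Figure D4:**
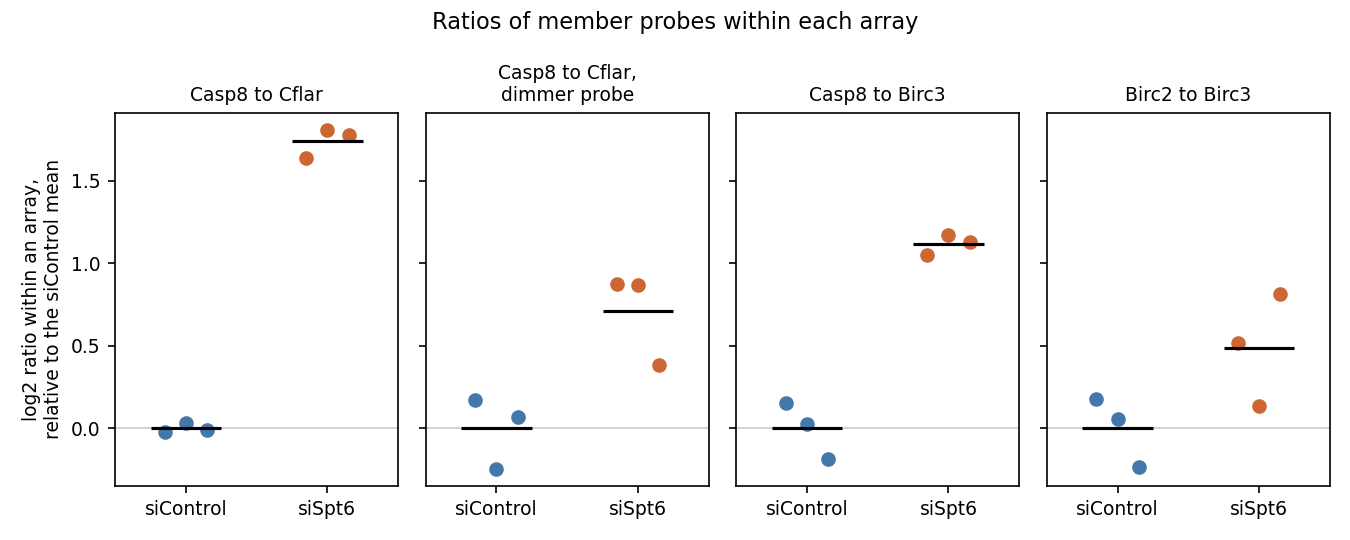
Log2 ratio of 2 probes within each array, relative to the mean of the siControl arrays, for Casp8 to the brighter Cflar probe, Casp8 to the dimmer Cflar probe, Casp8 to Birc3, and Birc2 to Birc3. Points are arrays (siControl blue, siSpt6 orange) and lines are group means; the first 3 ratios have groups that do not overlap, with means 1.74, 0.71 and 1.12 above siControl.

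The genes around these pairs on the chromosome were examined next, taking the 3 nearest protein-coding genes on each side of a gene. Around Cflar and Casp8, 4 were tested, Ndufb3, Flacc1, Trak2 and Stradb, and 0 passed the threshold, with log2 differences of -0.21 (Trak2) to 0.56 (Stradb), a lowest limma adjusted p of 0.355 (Ndufb3) and 0 of the 4 at an unadjusted p under 0.05. Around Birc2 and Birc3, 4 were tested, Mmp7, Tmem123, Yap1 and Cfap300, and 0 passed the threshold, with log2 differences of -0.52 (Cfap300) to 0.19 (Mmp7) and a lowest limma adjusted p of 0.0517 (Cfap300, the only 1 at an unadjusted p under 0.05). Cfap300 passed with only the probes complete on all arrays, after quantile normalization, after cyclic loess and without siControl replicate 3. Over the 8 genes, 28 different neighbours were tested, of which 2 rose and 3 fell. Over all named genes 17.0% were called, so these counts are no result about the places on the chromosome. The count of 5 went to 1 without siControl replicate 1, to 2 without siControl replicate 2, siSpt6 replicate 1 or siSpt6 replicate 2, and to 3 without siSpt6 replicate 3. The neighbours that passed were Bphl (log2 difference 1.05), Tubb2a (-0.76) and Tubb2b (-0.63) beside Ripk1, Fbxl8 (0.57) beside Tradd, and Gria3 (-0.98) beside Xiap. This set was chosen after the data were seen.

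Several receptor and ligand genes upstream were lower. Of 11 tested genes for death receptors and their ligands 5 fell and 0 rose by limma (5 and 0 also at an unadjusted p under 0.05), with a median log2 difference of 0.05, while 8.90% of all tested probes were called lower and 7.43% higher. The list was chosen with earlier results of these data known. Unadjusted counts are given here and for the lists below without the share of all tested probes at that threshold, so nothing is read from them. The cytokine gene Tnf went from 79.6 ± 5.60 to 32.1 ± 4.41 (intensity ± SD, n = 3 each), a log2 difference of -1.32 (limma adjusted p = 0.0022). Tnfsf15, which encodes the ligand TL1A of the receptor Tnfrsf25, fell from 24.5 ± 2.24 to 7.29 ± 0.461, a log2 difference of -1.75 (limma adjusted p = 0.00067). Fas, the death receptor that recruits Fadd and caspase 8, fell from 535 ± 88.4 to 278 ± 5.97, a log2 difference of -0.93 (limma adjusted p = 0.00795). The other 2 were the ligand Lta (-0.82) and the receptor Tnfrsf25 (-0.70). The probes of Tnfsf15, Lta and Tnfrsf25 were dim, at percentiles 35.6, 41.8 and 42.0 of mean levels. With a pseudocount of 2.66 the log2 difference of Tnfsf15 was -1.45, still past the threshold. The TNF receptor genes Tnfrsf1a and Tnfrsf1b had log2 differences of 0.05 (SE 0.19) and 0.12 (SE 0.13) and did not pass the threshold. The Tnfrsf1a probe was dim, at percentile 29.4 of mean levels.

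The partners of Ripk1 and the IAPs in the TNF receptor complex had calls in both directions. Of 24 tested genes 2 rose and 2 fell (3 higher and 4 lower at an unadjusted p under 0.05), with a median log2 difference of 0.01, and over all named genes 17.0% were called. Tab2, a ubiquitin-binding partner of the kinase TAK1, rose from 200 ± 18.5 to 323 ± 25.7 (limma adjusted p = 0.014). Cyld, which removes the ubiquitin chains, rose (log2 difference 0.51, limma adjusted p = 0.0369), and Rnf31, the catalytic subunit of the linear ubiquitin ligase, fell (-0.61, limma adjusted p = 0.0337). Tnfaip3, which encodes the ubiquitin-editing enzyme A20, fell (log2 difference -0.51, limma adjusted p = 0.0379). Each of Cyld, Rnf31 and Tnfaip3 passed in only 1 of the 6 fits without 1 array. Traf2, the adaptor that carries the IAPs to the receptor, had a log2 difference of -0.02 (SE 0.14). The necroptosis genes Ripk3 and Mlkl had -0.08 (SE 0.30) and -0.16 (SE 0.18). Their probes were dim, at percentiles 33.0 and 8.10 of mean levels, so little can be read from these values.

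The lists of other caspases, of the apoptosome and caspase substrates, and of BIR genes and IAP antagonists had 1 called gene each. Over all named genes 17.0% were called. Of 7 other caspases tested 1 rose and 0 fell (0 also at an unadjusted p under 0.05): Casp6, an effector caspase, rose from 95.6 ± 8.73 to 197 ± 50.9 (intensity ± SD, n = 3 each), a log2 difference of 1.01 (limma adjusted p = 0.0195), which passed in 2 of the 6 fits without 1 array. Casp9, the initiator of the mitochondrial route, had -0.21 (SE 0.18). Of 12 tested genes of the apoptosome and of caspase substrates 0 rose and 1 fell (0 higher and 4 lower at an unadjusted p under 0.05), Lmnb1, the nuclear lamin B1 (-0.65, limma adjusted p = 0.0402), a call kept in 1 of the 6 fits without 1 array and lost after quantile normalization and cyclic loess. Bid, which caspase 8 cleaves, had -0.57 (SE 0.18) and did not pass the threshold (limma adjusted p = 0.0749). Of 5 tested genes with BIR domains or for IAP antagonists 0 rose and 1 fell (0 higher and 2 lower at an unadjusted p under 0.05), Gspt1, best known as a translation release factor (-0.55, limma adjusted p = 0.0311), with a call that held in 1 of the 6 fits and was lost in the same way. Birc5, survivin, had -0.38 (SE 0.11) and did not pass the threshold, and Diablo, the IAP antagonist Smac, had -0.16 (SE 0.15).

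Among genes with death domains or death effector domains, or whose products bind them, 0 of 14 rose and 2 fell by limma, with a median log2 difference of -0.29; over all named genes 17.0% were called. At an unadjusted p under 0.05, 1 was higher and 6 were lower, from which nothing is read, as the share of all probes at that threshold is not given. Ift57, best known as a part of cilia and as a partner of the Huntingtin-interacting protein Hip1, fell from 66.9 ± 10.5 to 37.2 ± 3.45 (intensity ± SD, n = 3 each, limma adjusted p = 0.0134). Casp8ap2, a caspase 8 binding protein that also serves histone gene transcription, fell (log2 difference -0.58, limma adjusted p = 0.0433), a call kept in 1 of the 6 fits without 1 array and lost with the replicate block (limma adjusted p = 0.0525). Pea15a, a death effector domain protein that binds Fadd and caspase 8, had 0.24 (SE 0.16).

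Of 17 tested other genes that NF-kB is known to induce 1 rose and 3 fell, with a median log2 difference of -0.15, and over all named genes 17.0% were called. Ccl22, a chemokine gene, fell from 7150 ± 575 to 1893 ± 190 (intensity ± SD, n = 3 each), a log2 difference of -1.92 (limma adjusted p = 0.000655), and Fas and Tnfaip3, given above, were the others. Rel, an NF-kB subunit, rose (log2 difference 0.66, limma adjusted p = 0.0228), a call kept in 3 of the 6 fits without 1 array and lost with the replicate number as a block (limma adjusted p = 0.0508). That of Tnfaip3 was lost with the block (limma adjusted p = 0.0588) and after quantile normalization and cyclic loess. Nfkbia, the inhibitor that NF-kB induces most directly, had -0.42 (SE 0.12, limma adjusted p = 0.0520). Traf1 and Relb had -0.16 (SE 0.18) and -0.02 (SE 0.13).

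**Figure D5:**
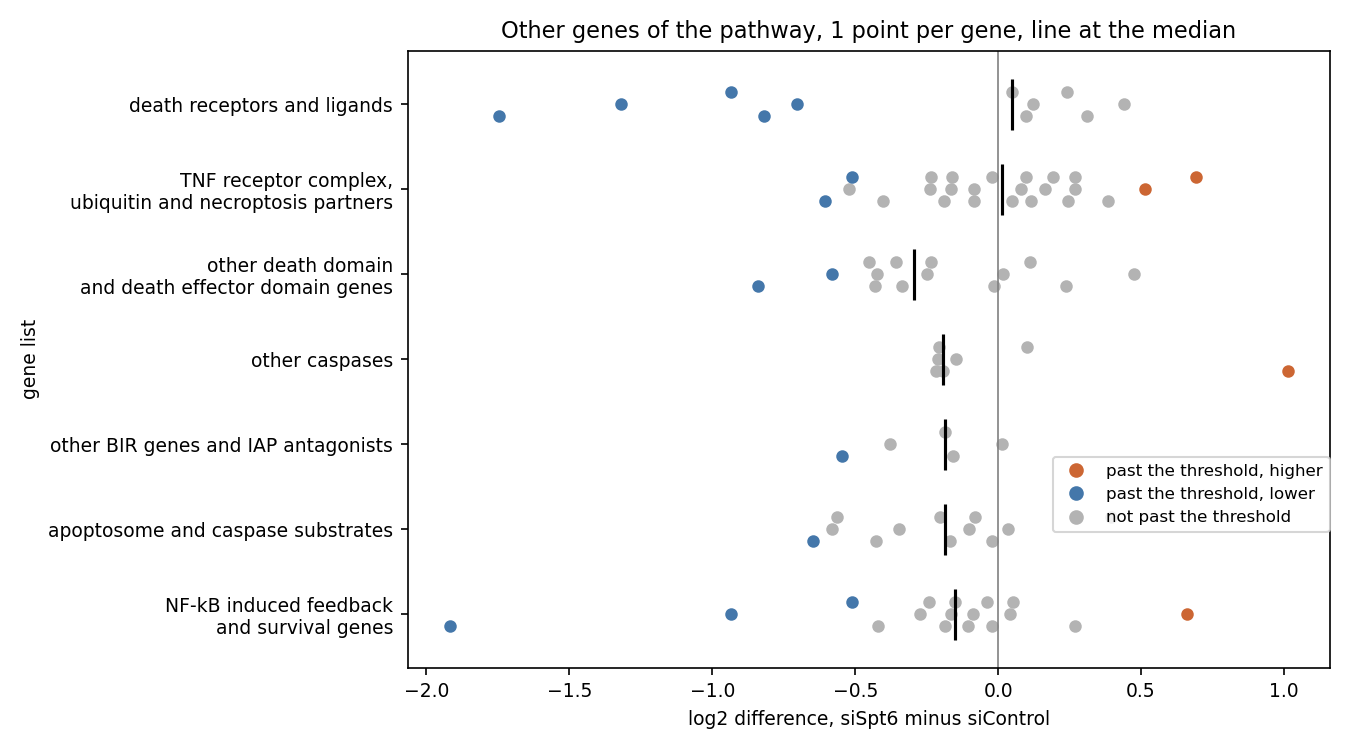
Log2 difference, siSpt6 minus siControl, of each tested gene of 7 lists of other pathway genes, with orange points for genes that rose, blue for genes that fell and grey for genes not past the threshold. Vertical lines are list medians, from -0.29 to 0.05; the death receptor and ligand list has 5 falls and no rise.

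Counting each gene once, 86 genes of these 7 lists were tested, of which 4 rose and 12 fell, 16 in all, with a median log2 difference of -0.15 against 0.01 for all tested probes. The share called is near the 17.0% of all named genes, so it is no result about the pathway. Among the 10792 tested probes at or above the median level, the median log2 difference was -0.07. When those probes were fitted alone, 36.7% of the called ones were higher. The lists were not matched for level, so nothing is read from their medians or directions. Of the 86 genes, 6 were higher and 23 lower at an unadjusted p under 0.05. The share of all tested probes at that unadjusted threshold is not given here. Nothing is therefore read from the unadjusted counts, for these genes together or for the single lists. Without 1 array the count fell to between 7 and 13: it was 7 without siControl replicate 1, 8 without siSpt6 replicate 1, and 9 without siControl replicate 3 or siSpt6 replicate 2.

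By Pearson's r of log2 intensities over the 6 arrays, among 7935 named genes at or above the median level, the genes whose pattern was most like that of the brighter Cflar probe were Mrm3, Oit3 and Mipep (r of 0.999 for each). Their log2 differences were -0.29, -1.04 and -0.80. The likeness is a description of 6 arrays that form 2 groups, and the search took the highest of many genes.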

How the data were processed

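RNA of 6 CH12F3-2A samples was analysed, 3 siControl and 3 siSpt6, grouped and numbered by their titles. Per the labels' protocols the authors amplified the RNA, coupled it to Cy5 and hybridised it by the protocol of the maker TORAY. The authors deposited intensity values on a linear scale, 1 column per array; the sources used here give no background correction, normalization or detection limit. From 4.69% to 8.29% of values on an array were blank and were taken as missing.

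Probes were named from the platform table, with older symbols updated through RefSeq names (assembly GRCm38.p6): 16631 of 23473 probes had a symbol. Intensities were log2-transformed without a pseudocount. Limma 3.58.1 in R 4.3.3 (lmFit, eBayes, group as the only term, two-sided) was fitted to the 21584 probes with values on at least 2 arrays per group, with Benjamini-Hochberg adjustment over all of them and a threshold of 0.05. The scripts were tested on simulated data. The number of arrays limits the precision.

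The members and the gene lists were chosen with earlier results of these data known. Named are all 8 members, Supt6, the 3 genes most like the member with the largest difference, and in each list the genes of smallest adjusted p that passed, at most 2 in each direction; other list members, the cell markers and the chromosomal neighbours were named after their values were seen. Alternatives were quantile and cyclic loess normalization, bright or complete probes only, a pseudocount of 2.66, eBayes with trend and robust options, the replicate number as a block, the mean of a gene's probes, and each array left out.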

Additional observations from a re-analysis of the deposited data

How the results depend on the processing

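As a description of the contrast that chose them, Cflar and Birc3 kept their direction and their side of the threshold in all 14 other fits, and Casp8 in the 8 that used all arrays. Fadd, Ripk1 and Birc2 changed sign in 2, 2 and 1 of the fits without 1 array, and were called in none of the fits that held them; Fadd and Xiap were left out where bright probes alone were kept. Leaving out 1 array gave 2099 to 2522 changed probes against 3525, 7 to 13 changed pathway genes against 16, and 2 called members against 3, with fewer samples in the fit. The other settings gave 3232 to 4568 changed probes and 12 to 22 changed pathway genes. Quantile normalization and cyclic loess ended the calls of Gspt1, Lmnb1 and Tnfaip3 (quantile: limma adjusted p = 0.216, 0.115 and 0.0663), and Casp8ap2 after cyclic loess (limma adjusted p = 0.0505); the cause was not tested.

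With the replicate number as a block 3594 probes changed and the 3 members stayed called, while limma adjusted p was 0.0588, 0.0525 and 0.0508 for Tnfaip3, Casp8ap2 and Rel, no longer past the threshold. The samples share only a number: deviations from the group means of same-numbered arrays correlated with r of 0.35, 0.08 and 0.26 over probes, each array correlating best with its own number. With the values dim near the scale's low end and no background given, depth in the sense of signal over background is unknown. Among the members this bears most on Xiap and Fadd, and in the lists on dim probes such as those of Mlkl and Tnfsf15. Of the 28 chromosomal neighbours 1 to 7 were called over the settings against 5.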
